A study of Mus musculus with 20 samples.

Results

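The comparison described here is the loss of telomerase in the kidneys of young mice: 5 G3 Tert-/- mice against 5 Tert+/+ mice, all male and 7 weeks old, which are 10 of the 20 libraries of the study. Its members are the libraries that carry those labels and the 14630 of 19940 genes with a normalized read count of 10 or more in at least 5 of the 20 libraries. G3 means the generation numbered 3 of mice bred without Tert. The other 10 mice are G3 Tert-/- and Tert+/+ males of 47 weeks, and they enter below only as a second age in which to read the same genes. Each library is 1 whole kidney sample of 1 mouse, read at the 3′ end of polyadenylated RNA. The Tert allele is carried by every cell of the mouse, and no Cre or transgene promoter is named. Litters, days and batches are not labelled, so p-values measure only the spread between these mice. In whole tissue, fewer cells of a type and less RNA per cell cannot be told apart.

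Telomerase adds the repeats that cap chromosome ends, with Tert as its reverse transcriptase subunit. Cells without it lose telomere repeats at each division, and mice bred without it for successive generations start life with shorter telomeres. Very short telomeres are known to activate the DNA damage response and p53, and in the kidney cell turnover after birth is slow outside of injury. Telomere length was not analysed here.

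Tert itself (chromosome 13, 73626911 to 73649843, plus strand) was counted first, as a check of the labels. Its normalized count at 7 weeks was 15.7, 7.72, 10.8, 10.2 and 4.21 in the Tert+/+ mice against 1.82, 0.979, 5.65, 4.98 and 2.14 in the G3 Tert-/- mice. The lowest Tert+/+ value lay below 2 of the G3 Tert-/- values, so the groups overlapped. The means were 9.72 ± 4.24 and 3.11 ± 2.07 (SD, n = 5 each), and the difference had an exact two-sided permutation p of 0.0238, where the smallest that 5 against 5 can give is 0.00794. Reads remained in every G3 Tert-/- library, and reads from the 3′ end need not cover the stretch that was deleted, which makes this a weak check.

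The 10 young libraries held 7486637 to 9757594 reads assigned to genes, with 18817 to 19050 genes detected. Where a gene is at 0, up to 3 reads remain possible, equal to 2.49 to 3.22 normalized counts here, for counting error alone. The listed markers of proximal tubule, thick ascending limb, distal convoluted tubule, collecting duct, intercalated cells and podocytes were all present in both groups. Tert+/+ young replicate 1 stood apart: over 7252 abundant genes its departures from the median library had an SD of 0.63 log2 units, against 0.22 to 0.40 in the other 9 young libraries. Mitochondrially encoded transcripts took 22.3% of its reads, against 25.4% to 31.5% in the others. It was kept, and the main counts are also given without it.

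In the young kidneys 0 of the 14630 tested genes passed limma after Benjamini-Hochberg adjustment, and the smallest adjusted p was 0.0969, for the mitochondrial transfer RNA mt-Tn. With an unadjusted p under 0.05 there were 771 genes higher and 788 lower in G3 Tert-/- kidneys (5.27% and 5.39% of those tested, 10.7% together). Without Tert+/+ young replicate 1 these were 417 and 524 (2.85% and 3.58%). In 205 genes (1.4%) the 5 values of one group all lay beyond the 5 of the other, with 88 higher (0.602%) and 117 lower (0.8%) in G3 Tert-/- kidneys. On reads recovered from the normalized counts, edgeR called 0 genes (1538 with an unadjusted p under 0.05, 10.5%) and DESeq2 called 13 (0.0889%), 11 of them lower (0.0752%) and 2 higher (0.0137%) in G3 Tert-/- kidneys. DESeq2 called 0 without Tert+/+ young replicate 1. The middle of the distribution was narrow: the median absolute log2 fold change was 0.17, and the 5th and 95th percentiles of the log2 fold change were -0.45 and 0.56. The genes below are therefore described by their values. None of them passed limma at 7 weeks, and those that DESeq2 called are named as such.

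**Figure D1:**
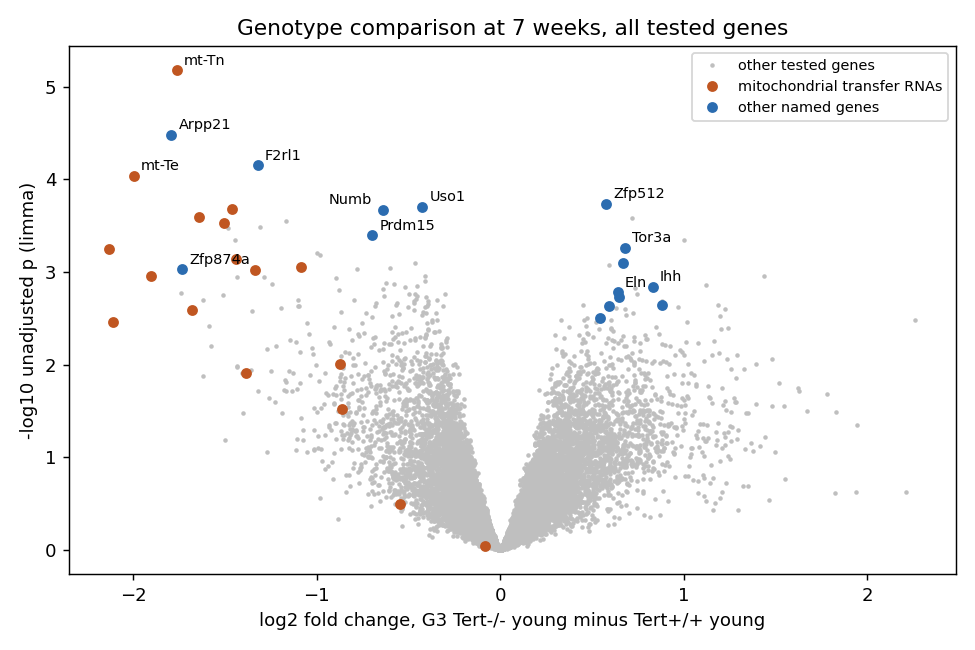
Each point is 1 of 14630 tested genes, with the log2 fold change (G3 Tert-/- minus Tert+/+, 7 weeks) on the horizontal axis and the -log10 of the unadjusted limma p on the vertical axis, where no gene passed after adjustment. Mitochondrial transfer RNAs (orange) all lie left of 0 and mt-Tn is the highest point, while the other named genes (blue) lie on both sides.

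The group of transcripts that stood out among the smallest p-values was that of the transfer RNAs encoded by the mitochondrial genome. These small RNAs carry amino acids to the mitochondrial ribosome, which translates only the proteins of the respiratory chain that mitochondrial DNA encodes. They are cut out of long precursor transcripts of either strand, in which they lie between the messenger and ribosomal RNAs. The library kit primes on runs of adenosine, so a count of a transfer RNA here is of molecules or precursors that carry such a run, not of the whole pool. In 7 of them the young groups did not overlap. Their gene sequences are shown because their class stood out among the smallest p-values, although none passed limma. They are the annotated transcripts of GENCODE M21 on GRCm38, written 5′ to 3′ as DNA, with the anticodon in capitals.
mt-Tn: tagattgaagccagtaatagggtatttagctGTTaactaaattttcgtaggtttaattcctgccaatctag
mt-Tc: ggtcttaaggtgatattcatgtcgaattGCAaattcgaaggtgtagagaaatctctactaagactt
mt-Te: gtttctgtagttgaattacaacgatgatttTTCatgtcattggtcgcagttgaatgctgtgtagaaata
mt-Tp: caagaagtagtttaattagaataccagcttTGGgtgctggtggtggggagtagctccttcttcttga
mt-Ta: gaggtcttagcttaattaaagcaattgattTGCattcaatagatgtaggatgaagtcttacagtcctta
mt-Tl1: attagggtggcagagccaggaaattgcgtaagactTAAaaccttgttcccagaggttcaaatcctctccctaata
mt-Tr: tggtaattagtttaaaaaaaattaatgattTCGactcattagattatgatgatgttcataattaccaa
They are 66 to 75 bases long, with 22.1% to 44.8% G or C. The amino acids they carry are asparagine (mt-Tn), cysteine (mt-Tc), glutamate (mt-Te), proline (mt-Tp), alanine (mt-Ta), leucine (mt-Tl1) and arginine (mt-Tr). On the mitochondrial chromosome M, mt-Ta (5018 to 5086), mt-Tn (5089 to 5159) and mt-Tc (5192 to 5257) are near neighbours on the minus strand. mt-Te (14071 to 14139) and mt-Tp (15356 to 15422) lie on that strand too, while mt-Tl1 (2676 to 2750) and mt-Tr (9808 to 9875) are on the plus strand.

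The normalized count of mt-Tn was 1292, 492, 633, 994 and 602 in the Tert+/+ mice against 305, 121, 150, 277 and 344 in the G3 Tert-/- mice. Every Tert+/+ value was above every G3 Tert-/- value, and Tert+/+ replicate 1 was the highest. The means were 803 ± 332 and 239 ± 98.3 (SD, n = 5 each), 3.35-fold apart, with a log2 fold change of -1.76, SE 0.30, and -1.57 without Tert+/+ replicate 1. DESeq2 called it (adjusted p = 6.99e-05), edgeR did not (adjusted p = 0.0976), and over all alternatives its adjusted p ranged from 6.99e-05 to 0.583. mt-Te was 662, 150, 181, 254 and 145 in the Tert+/+ mice against 82.7, 21.5, 34.9, 113 and 86.8 in the G3 Tert-/- mice. Again the groups did not overlap, with means 4.11-fold apart and a log2 fold change of -1.99, SE 0.42. mt-Tc was 394, 109, 114, 131 and 80.8 in the Tert+/+ mice against 64.5, 30.3, 48.0, 57.3 and 57.9 in the G3 Tert-/- mice, and its G3 Tert-/- values kept within 30.3 to 64.5. mt-Tr, on the other strand, was 649, 134, 122, 178 and 142 in the Tert+/+ mice against 80.8, 9.79, 21.7, 122 and 69.7 in the G3 Tert-/- mice. Its lowest Tert+/+ value equalled its highest G3 Tert-/- value to 3 digits but did not overlap it. mt-Tp was 854, 255, 379, 482 and 365 in the Tert+/+ mice against 215, 89.1, 65.9, 218 and 175 in the G3 Tert-/- mice. mt-Ta was 1330, 268, 257, 463 and 298 in the Tert+/+ mice against 156, 98.8, 102, 233 and 230 in the G3 Tert-/- mice, and mt-Tl1 was 307, 91.6, 73.4, 114 and 80.8 in the Tert+/+ mice against 56.3, 24.5, 25.4, 47.3 and 56.8 in the G3 Tert-/- mice. In these last 3 the highest Tert+/+ value was again that of replicate 1, and without it their log2 fold changes were -1.39, -1.02 and -1.15.

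Of the 22 mitochondrial transfer RNAs in the table, 17 were tested and 5 were too low, and all 22 had a lower mean in G3 Tert-/- kidneys. Among the tested, the log2 fold changes ran from -2.13 (mt-Tr) to -0.08 (mt-Ti) with a median of -1.46, beside 0.00 over all tested genes. An unadjusted p under 0.05 was reached by 15 of the 17, against 5.39% of all tested genes in that direction, and 7 of the 17 did not overlap, against 0.8%. Without Tert+/+ replicate 1, which held the highest young value of all 17, the median was -1.09. An unadjusted p under 0.05 was then reached by 13, against 3.58% of all tested genes in that direction. The count of 7 without overlap could not change, since leaving out the highest Tert+/+ library does not move the lowest. DESeq2 called 6 of the 17 (mt-Tn, mt-Tc, mt-Tl1, mt-Te, mt-Tm and mt-Tg), and 0 without Tert+/+ replicate 1. They are cut from shared precursors and share libraries, so they are not 17 separate observations. 16 of them had 10 or more in at least 5 libraries even when the Tert+/+ young group is left out. The exceptions to the pattern were the isoleucine carrier mt-Ti (137, 10.6, 66.5, 28.7 and 134 in the Tert+/+ mice against 9.99, 97.9, 121, 24.1 and 96.5 in the G3 Tert-/- mice) and the threonine carrier mt-Tt (173, 10.6, 23.5, 22.2 and 30.3 in the Tert+/+ mice against 17.3, 15.7, 23.5, 33.2 and 20.4 in the G3 Tert-/- mice). Their values in the groups overlapped, and without Tert+/+ replicate 1 their log2 fold changes were 0.26 and 0.06.

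**Figure D2:**
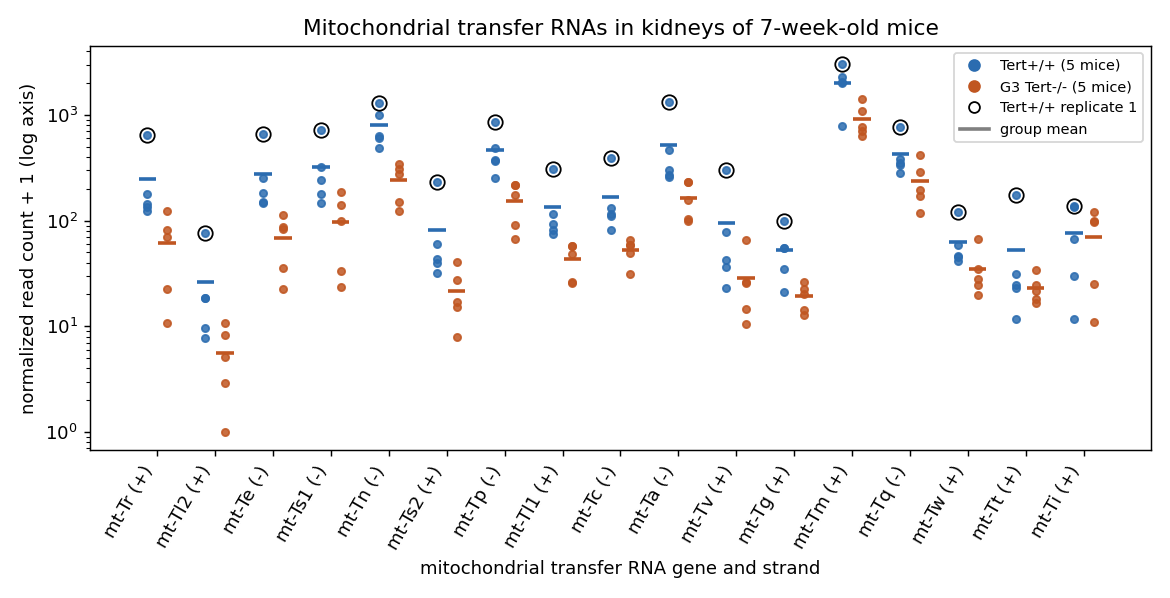
Normalized read count + 1 (log axis) of the 17 tested mitochondrial transfer RNAs in each of the 10 young kidneys, with the strand in brackets, horizontal bars at the group means of the 5 mice and Tert+/+ replicate 1 ringed. The ringed library is the highest in each, and in mt-Tn, mt-Te, mt-Tc, mt-Tp, mt-Ta, mt-Tl1 and mt-Tr the 2 groups stay apart.

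Summed over the mitochondrial transfer RNAs, the normalized count was 11275, 3000, 4578, 5736 and 4911 across the Tert+/+ mice and 2831, 1334, 1635, 2660 and 2770 across the G3 Tert-/- mice. The groups did not overlap, but the lowest Tert+/+ library was only just above the highest G3 Tert-/- library. These sums were 0.0159% to 0.148% of all reads. Per 1000 counts of mitochondrial messenger RNA the sums were 11.7, 1.70, 2.66, 2.89 and 3.26 for Tert+/+ and 1.57, 0.657, 1.11, 1.71 and 1.77 for G3 Tert-/- mice, where Tert+/+ replicate 2 lay below 2 G3 Tert-/- libraries. In the 47-week mice the summed normalized count was 1790 to 3104 in Tert+/+ and 1743 to 3264 in G3 Tert-/- kidneys, so the old groups overlapped and lay within or near the range of the young G3 Tert-/- mice. At 47 weeks the median log2 fold change of the 17 was -0.25 and none had an unadjusted p under 0.05. The interaction of genotype and age had an unadjusted p under 0.05 in 9 of the 17, against 6.22% of all tested genes, and its smallest adjusted p among them was 0.743, so a difference between the ages did not pass.

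The messenger RNAs from the same precursors lay on both sides of 0. 6 of the 13 had a higher and 7 a lower log2 fold change, with a median of -0.03, and -0.21 without Tert+/+ replicate 1. An unadjusted p under 0.05 was reached by 1 higher and 3 lower genes, where 5.27% and 5.39% of all tested genes did so, and by 0 without that library. mt-Nd6, a subunit of complex I and the messenger RNA that shares the minus strand with mt-Tn, mt-Te and mt-Tp, was 119 ± 33.9 and 118 ± 41.5 in Tert+/+ and G3 Tert-/- kidneys (SD, n = 5 each). mt-Cytb, the cytochrome b of complex III, had a log2 fold change of 0.67, SE 0.29, and mt-Co3, a subunit of complex IV, one of -0.69, SE 0.32. In mt-Co3 a single library carried the difference, since Tert+/+ replicate 1 held 181805 and the other 4 held 42663 to 46169, and without it the log2 fold change was -0.28. Both mitochondrial ribosomal RNAs were slightly lower (median log2 fold change -0.33). Of the nuclear genes for mitochondrial transcription and RNA processing, 1 of 30 was lower and 0 higher with an unadjusted p under 0.05, and their median was -0.04. That gene was Mterf3, a mitochondrial transcription regulator (-0.47, SE 0.23). It lies on chromosome 13 within 10 megabases (Mb) of Tert, among the neighbours counted separately below.

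Other small RNA classes were lower as well, by smaller amounts. By annotated class, 16 of 21 small nucleolar RNAs, 10 of 14 microRNA genes, 17 of 23 small nuclear RNAs and 14 of 15 miscellaneous RNAs had a negative log2 fold change, with medians of -0.52, -0.93, -0.21 and -0.18. Among protein-coding genes 6149 of 12566 were negative (median 0.01). The lean was not confined to small RNAs. In the annotated classes TEC and sense intronic, 417 of 680 and 57 of 92 were negative, with medians of -0.10 and -0.05. Processed transcripts leaned the other way, with 75 of 178 negative (median 0.06). 7 of the small nucleolar RNAs and 6 of the microRNA genes were lower with an unadjusted p under 0.05, against 5.39% of all tested genes. Without Tert+/+ replicate 1 these were 4 and 5, and the medians were -0.33 and -0.79. In 47-week kidneys the medians were 0.10 for small nucleolar RNAs, -0.32 for microRNA genes, -0.13 for small nuclear RNAs and 0.03 for miscellaneous RNAs. RNA quality was labelled only as a mean over libraries, and its part in these values was not tested.

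F2rl1 was lower in G3 Tert-/- kidneys at both ages. It encodes proteinase-activated receptor 2, a membrane receptor switched on when trypsin-like proteases cut its outer end (chromosome 13, 95511732 to 95525227, minus strand). The gene lies on the same chromosome as Tert, beyond 20 Mb from it. Whether DNA carried along with the targeted Tert allele reaches F2rl1 was not tested. The normalized count was 110, 69.4, 52.8, 69.3 and 42.9 in the Tert+/+ mice against 26.3, 34.3, 31.1, 12.5 and 31.1 in the G3 Tert-/- mice. The lowest Tert+/+ mouse was above the highest G3 Tert-/- mouse, and the means were 68.9 ± 25.7 and 27.0 ± 8.63 (SD, n = 5 each), 2.55-fold apart. The log2 fold change was -1.32, SE 0.27 at 7 weeks (adjusted p = 0.335 by limma and 0.00327 by DESeq2) and -1.08 at 47 weeks, in other mice (unadjusted p = 0.000649 by limma). Averaged over both ages it fell (limma, log2 fold change -1.20, adjusted p = 0.0186). No gene passed in that average without Tert+/+ young replicate 4, Tert+/+ old replicate 1 or G3 Tert-/- old replicate 2, each left out in turn. F2rl1 was 1 of 4 genes (0.0273%) that passed in it with all 20 libraries, and the only one of them with an unadjusted p under 0.05 at 7 weeks. In its list of 11 tested receptors, proteases and inhibitors, it was the 1 gene with an unadjusted p under 0.05. Such a p was reached by 10.7% of all tested genes, and the list was chosen with earlier results of these data known.

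Arpp21, a phosphoprotein regulated by cyclic AMP and best known from neurons (chromosome 9, 112065091 to 112235938, minus strand), was 81.7, 26.0, 21.5, 24.0 and 30.3 in the Tert+/+ mice against 6.36, 6.85, 8.48, 7.47 and 16.1 in the G3 Tert-/- mice. The groups did not overlap although Tert+/+ replicate 1 was far above its own group, and the log2 fold change was -1.79, SE 0.35, and -1.46 without that library. Uso1, a tether for vesicles between the endoplasmic reticulum and the Golgi (chromosome 5, 92137938 to 92202798, plus strand), was 465, 367, 394, 374 and 399 in the Tert+/+ mice against 273, 287, 315, 285 and 328 in the G3 Tert-/- mice. This was a small difference between tight groups, 1.34-fold, with a log2 fold change of -0.42, SE 0.10. Prdm15, a zinc finger regulator of transcription, was 59.0, 48.2, 40.1, 39.7 and 36.2 in the Tert+/+ mice against 29.98, 24.5, 30.1, 27.4 and 22.5 in the G3 Tert-/- mice, with no overlap. Numb, an adaptor that restrains Notch signalling, had means of 127 ± 21.5 and 81.7 ± 17.7 and groups that overlapped (-0.64, SE 0.15). DESeq2 called Arpp21, Uso1 and Numb, but not Prdm15 (adjusted p = 0.171). At 47 weeks their log2 fold changes were -0.21 (Arpp21), -0.09 (Uso1), 0.15 (Prdm15) and 0.18 (Numb).

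Zfp512, a zinc finger protein (chromosome 5, 31452431 to 31481754, plus strand), was higher in G3 Tert-/- kidneys, at 78.7, 124, 120, 92.4 and 115 in the Tert+/+ mice against 154, 171, 161, 169 and 132 in the G3 Tert-/- mice. Its groups did not overlap, the means were 106 ± 19.7 and 157 ± 15.8 (SD, n = 5 each), and the log2 fold change was 0.58, SE 0.13 (DESeq2 adjusted p = 0.0398). The other gene that DESeq2 called as higher, named here after its values were seen, was Gm26870, a non-coding gene at the centromeric end of the assembled chromosome 9 (3000282 to 3038313). It was 35.4, 46.3, 45.0, 40.7 and 42.1 in the Tert+/+ mice against 69.0, 110, 51.8, 128 and 85.7 in the G3 Tert-/- mice, and repeated sequence near centromeres makes such a count uncertain. Tor3a, an ATPase of the torsin family, was 38.4, 39.5, 39.1, 35.1 and 26.9 in the Tert+/+ mice against 60.9, 58.7, 68.8, 46.5 and 54.7 in the G3 Tert-/- mice, with a log2 fold change of 0.68, SE 0.17.

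7 further genes that the naming rule took as higher had log2 fold changes of 0.54 to 0.88 and groups that did not overlap. 3 of them are secreted or act outside the cell. Ihh, the ligand Indian hedgehog (chromosome 1, 74945315 to 74951672, minus strand), was 25.6, 18.3, 33.3, 26.8 and 20.2 in the Tert+/+ mice against 35.4, 39.1, 51.8, 52.3 and 43.9 in the G3 Tert-/- mice. Eln, the elastin of elastic fibres (chromosome 5, 134702593 to 134747323, minus strand), was 54.1, 60.8, 46.0, 60.1 and 58.1 in the Tert+/+ mice against 73.6, 69.5, 140, 91.3 and 76.1 in the G3 Tert-/- mice, and G3 Tert-/- replicate 3 was well above its group. Fam3c, a secreted cytokine-like protein studied in epithelial to mesenchymal transition, was 46.3, 81.0, 102, 91.5 and 76.6 in the Tert+/+ mice against 130, 137, 137, 111 and 103 in the G3 Tert-/- mice. The other 4 were the small GTPase Rab32 (0.65, SE 0.18), the amidase Wdyhv1 (0.88, SE 0.26), the G protein subunit Gnb5 (0.60, SE 0.17) and the membrane protein Tmem140 (0.54, SE 0.16). Without Tert+/+ replicate 1 the log2 fold changes of these 7 were 0.37 (Tmem140) to 0.85 (Ihh).

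**Figure D3:**
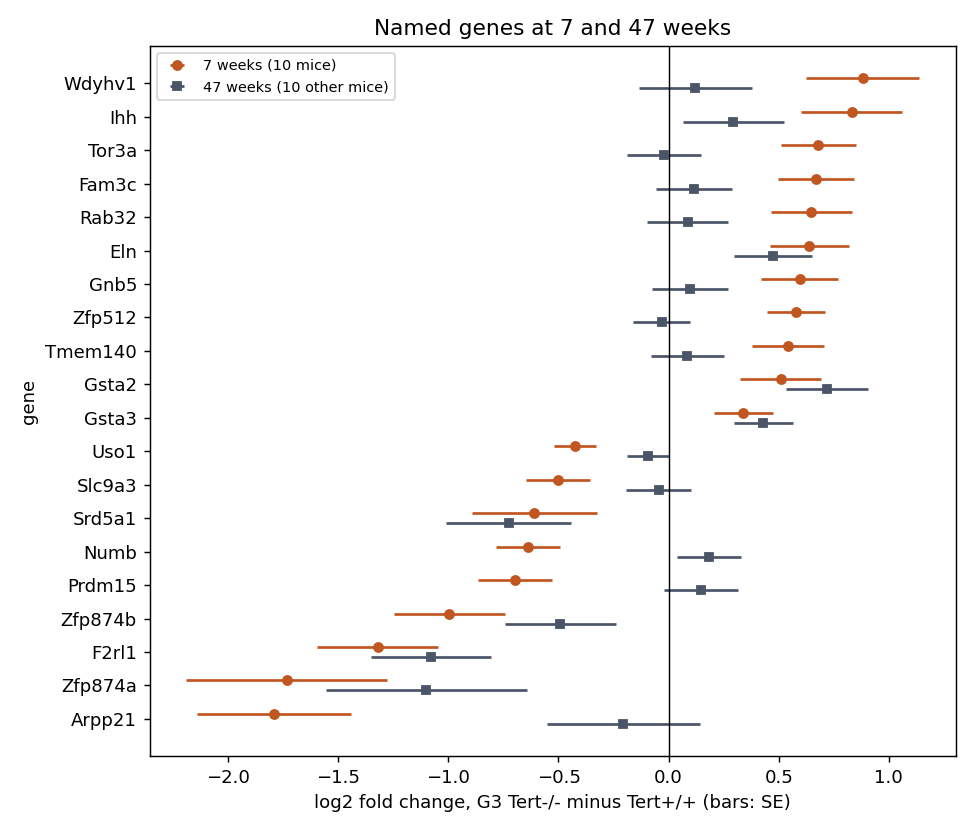
Log2 fold changes (G3 Tert-/- minus Tert+/+) with SE bars for 20 named nuclear genes in the 10 mice of 7 weeks (circles) and the 10 other mice of 47 weeks (squares). F2rl1 is at -1.32 and -1.08, Gsta2 and Gsta3 are above 0 at both ages, and Arpp21, Zfp512 and Tor3a are near 0 at 47 weeks.

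The mice of 47 weeks share no library with the young ones, so the direction of each young difference could be read again there. Of the 88 genes whose young G3 Tert-/- values were all higher, 62 (70.5%) had a positive log2 fold change at 47 weeks, where 52.1% of all tested genes did. Of the 117 that were all lower, 71 (60.7%) were negative, against 47.9% of all tested genes. The sizes were small at 47 weeks, with medians of 0.12 and -0.05, and 4 and 9 genes reached an unadjusted p under 0.05 in the same direction, as did 3.08% (higher) and 3.5% (lower) of all tested genes. A further 4 of the 117 reached it in the opposite direction, and 0 of the 88. Across the 14630 genes the 2 sets of log2 fold changes had a Pearson r of 0.24 and a Spearman rho of 0.20, as a description over genes that are not independent. In the reverse direction, Slco1a1, the organic anion transporter that was lower in old G3 Tert-/- kidneys, was 1297, 1147, 1999, 2038 and 2337 in the Tert+/+ mice against 2188, 1192, 1778, 1545 and 1914 in the G3 Tert-/- mice at 7 weeks. Those groups overlapped, with a log2 fold change of -0.01, SE 0.23, and it was the 1 gene of all tested (0.00684%) whose interaction of genotype and age passed (limma, -2.09, adjusted p = 0.0199). With 1 library left out at a time, no interaction passed in 10 of the 20 cases, namely those without Tert+/+ young replicate 2, G3 Tert-/- young replicates 1, 3 or 5, Tert+/+ old replicates 1, 2 or 5 and G3 Tert-/- old replicates 1, 2 or 4.

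Because Tert lies on chromosome 13, the tested genes beside it were counted separately. DNA that flanks a targeted allele travels with it. Effects of that DNA cannot be told apart here from those of telomerase loss. Within 10 Mb of the start of Tert, 21 of 99 (21.2%) had an unadjusted p under 0.05, 5 higher and 16 lower. The 99 include Tert itself, which was among the 16 lower. Among these 99, 7.07% did not overlap, against 1.4% of all tested genes. On the rest of chromosome 13, beyond 20 Mb, 12.7% had such a p, and on the other autosomes 8.64% to 12.4%. 8 of the 21 lay among the 20 tested genes of a stretch 5.5 to 6.5 Mb before Tert that holds a cluster of zinc finger genes, a stretch chosen after its values were seen. Zfp874a (chromosome 13, 67424549 to 67451624, minus strand) was 64.9, 30.9, 37.2, 37.0 and 42.9 in the Tert+/+ mice against 19.98, 13.7, 10.4, 4.15 and 17.1 in the G3 Tert-/- mice. Its groups did not overlap, and DESeq2 called it (adjusted p = 0.0398). Zfp874b, beside it, was 70.3 ± 11.99 and 36.6 ± 14.6 (SD, n = 5 each) and Zfp738 was 83.4 ± 15.2 and 47.6 ± 15.9. Zfp457 went the other way, from values at or near the limit that a count of 0 allows: it was 0.984, 0.964, 1.96, 0.00 and 4.21 in the Tert+/+ mice against 5.45, 6.85, 14.1, 13.3 and 12.9 in the G3 Tert-/- mice. At 47 weeks the log2 fold changes of Zfp874a, Zfp874b, Zfp738 and Zfp457 kept their signs, at -1.10, -0.49, -0.64 and 1.32. Such genes are close copies of each other, so the way reads were counted could move these values.

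Nearer to Tert were genes of known kidney function. Slc9a3, the sodium/proton exchanger of the proximal tubule's luminal membrane (chromosome 13, 74121457 to 74169442, plus strand), was 189, 142, 127, 134 and 121 in the Tert+/+ mice against 106, 75.4, 115, 93.0 and 111 in the G3 Tert-/- mice. Its groups did not overlap, with a log2 fold change of -0.50, SE 0.15 at 7 weeks and -0.05 at 47 weeks. Sdha, the catalytic subunit of respiratory complex II, had a log2 fold change of -0.24, SE 0.08 and of -0.26 at 47 weeks, and Srd5a1, a steroid 5-alpha-reductase, one of -0.61, SE 0.28 and of -0.73. Rhobtb3, a Golgi ATPase, was higher (1.08, SE 0.35), with no overlap.

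**Figure D4:**
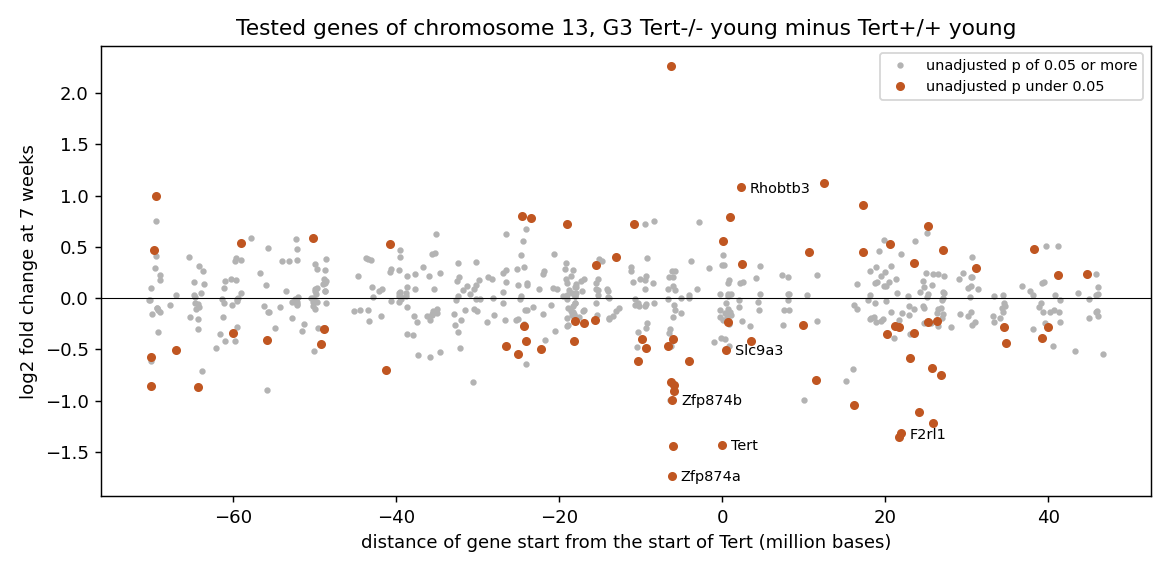
Log2 fold change at 7 weeks of the 569 tested genes of chromosome 13 against the distance of their start from that of Tert in megabases (Mb), with an unadjusted p under 0.05 in orange. Zfp874a and Zfp874b lie about 6 Mb before Tert among other orange points, most of them below 0, and F2rl1 lies beyond 20 Mb on the other side.

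Of 20 tested genes of telomerase and shelterin, the complex that covers telomeres, 2 were higher and 3 lower with an unadjusted p under 0.05, where 5.27% and 5.39% of all tested genes were. Without Tert+/+ replicate 1 these were 5 and 3, against 2.85% and 3.58%. The higher with all libraries were Acd, the protein that brings telomerase to the telomere (0.47, SE 0.14), and Terf1, which binds the duplex repeats (0.37, SE 0.16). Tert was 1 of the lower genes, with Terf2, which protects the chromosome end (-0.25, SE 0.11). Of 23 tested p53 targets 0 were higher and 2 lower, with a median of 0.01, where 10.7% of all tested genes had such a p in either direction, and without Tert+/+ replicate 1 there were 0. The lower were Bax, a promoter of apoptosis (-0.66, SE 0.31), and Rrm2b, a ribonucleotide reductase subunit (-0.31, SE 0.14). Cdkn1a, the p53 target that arrests the cell cycle, was 59.0, 97.4, 106, 190 and 160 in the Tert+/+ mice against 104, 178, 194, 167 and 139 in the G3 Tert-/- mice. Its groups overlapped, with a log2 fold change of 0.43, SE 0.26 at 7 weeks and 1.06 at 47 weeks. Of 20 DNA damage response genes 1 was higher and 1 lower (2 and 0 without Tert+/+ replicate 1), and of 11 genes of senescence and its secreted factors 2 were higher (0 without Tert+/+ replicate 1), the cell cycle inhibitor Cdkn1b (0.54, SE 0.22) and Igfbp7 (0.80, SE 0.36). Without Tert+/+ replicate 1 the log2 fold changes of these last genes were 0.35 and 0.58.

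The cell cycle list had 22 of 27 tested genes above 0, where 50.2% of all tested genes were, with a median of 0.23. In it 3 were higher with an unadjusted p under 0.05, against 5.27% of all tested genes, and 0 passed. Without Tert+/+ replicate 1 there was 1, against 2.85%. Rrm2, which supplies deoxynucleotides for replication, was 8.50 ± 5.40 and 14.9 ± 3.04 (SD, n = 5 each) and Nusap1, a protein of the mitotic spindle, was 46.7 ± 16.3 and 73.1 ± 22.1. The list score per library, the median of its members' centred log2 values, was -0.002 to 0.30 in Tert+/+ and 0.02 to 0.63 in G3 Tert-/- kidneys, so it overlapped. G3 Tert-/- replicates 1, 2 and 3 had the highest scores, and replicate 4 was at 0.02. At 47 weeks the median was -0.05.

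The series title names epithelial to mesenchymal transition and fibrosis. In the matrix list 4 of 40 tested genes were higher and 2 lower with an unadjusted p under 0.05, and in the transition list 1 of 21 was higher and 1 lower, where 5.27% and 5.39% of all tested genes were. These were 3 and 1 in the matrix list without Tert+/+ replicate 1, and again 1 and 1 in the transition list. Col1a1, a chain of fibrillar collagen, was 436, 410, 356, 356 and 321 in the Tert+/+ mice against 328, 449, 838, 628 and 418 in the G3 Tert-/- mice. G3 Tert-/- replicate 3 was the highest and replicate 1 lay below 4 of the Tert+/+ mice, and that replicate 3 also had the highest fibroblast score of the young mice (1.22, against -0.13 to 0.43), whose part in the result was not tested. Timp3, an inhibitor of metalloproteinases, was 17680 ± 1186 and 14580 ± 2011 and Thbs1, a matricellular protein, was 104 ± 30.6 and 69.5 ± 21.5 (SD, n = 5 each). Acta2, the smooth muscle actin that marks myofibroblasts and vessel walls, had a log2 fold change of 0.54, SE 0.21, and 0.33 without Tert+/+ replicate 1. Zeb1, a repressor of epithelial genes, was lower (-0.38, SE 0.14), Vim, an intermediate filament of mesenchymal cells, was at 0.21, SE 0.18 and Cdh1, the epithelial cadherin, at 0.17, SE 0.14. In TGF-beta and BMP signalling 4 of 30 were higher and 5 lower, and 0 and 2 without Tert+/+ replicate 1, against 2.85% and 3.58% of all tested genes. Tgfb1, the ligand most studied in fibrosis, was 115, 51.1, 46.9, 48.1 and 34.5 in the Tert+/+ mice against 26.3, 29.4, 25.4, 36.5 and 36.4 in the G3 Tert-/- mice. Tert+/+ replicate 1 was far above the rest, and without it the log2 fold change moved from -0.81 to -0.54. The BMP receptor Bmpr1a had a log2 fold change of -0.40, SE 0.12.

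In the list of the response to oxidants 4 of 28 tested genes were higher and 4 lower with an unadjusted p under 0.05, where 5.27% and 5.39% of all genes were, and 3 and 1 without Tert+/+ replicate 1. Gsta2, a glutathione transferase (chromosome 9, 78331018 to 78355788, minus strand), was 474, 556, 527, 556 and 658 in the Tert+/+ mice against 898, 1015, 744, 663 and 661 in the G3 Tert-/- mice. Gsta3, of the same family, was 254, 243, 251, 262 and 264 in the Tert+/+ mice against 352, 339, 280, 378 and 278 in the G3 Tert-/- mice. Neither overlapped, and both were higher at 47 weeks too, with log2 fold changes of 0.72 and 0.43. Gclc, the catalytic subunit of the enzyme that starts glutathione synthesis, was 1886, 2148, 2435, 3042 and 1848 in the Tert+/+ mice against 1779, 1808, 1715, 1631 and 1613 in the G3 Tert-/- mice, lower in each G3 Tert-/- mouse than in any Tert+/+ mouse. At 47 weeks it had the opposite sign (0.29), and the interaction did not pass (limma adjusted p = 0.743). Reads of the close copies in the Gsta family could be split in counting.

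In the heat shock list 2 Tert+/+ mice stood high. 13 of 16 members were below 0, where 7289 of all 14630 tested genes were, with a median of -0.19. Of the 16, 5 were lower with an unadjusted p under 0.05, against 5.39% of all tested genes. Without Tert+/+ replicate 1 there were 6, against 3.58%. The list score was 0.84 and 0.56 in Tert+/+ replicates 4 and 5 and -0.25 to 0.11 in the other 8 young libraries. Hsp90b1, a chaperone of the endoplasmic reticulum, was 3214, 2545, 3020, 5220 and 6345 in the Tert+/+ mice against 2937, 3316, 2480, 2243 and 3178 in the G3 Tert-/- mice. Those same 2 Tert+/+ mice were the high ones, and the other 3 lay among the G3 Tert-/- values. Chordc1, a partner of Hsp90, was 464, 611, 647, 1136 and 1164 in the Tert+/+ mice against 456, 620, 568, 502 and 630 in the G3 Tert-/- mice, with the same 2 mice high and Tert+/+ replicate 3 just above the highest G3 Tert-/- mouse.

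The counts for ribosomal protein and respiratory chain genes depended on Tert+/+ replicate 1. 13 of 68 ribosomal protein genes were higher with an unadjusted p under 0.05, against 5.27% of all tested genes. Without that library 3 were, against 2.85%. Rps12, of the small subunit, was 1465, 3531, 3468, 3435 and 3453 in the Tert+/+ mice against 3760, 4500, 4621, 4159 and 3604 in the G3 Tert-/- mice, and without Tert+/+ replicate 1 its log2 fold change moved from 0.49 to 0.24. In the respiratory chain 10 of 74 nuclear genes were higher, and 2 without it, beside the same shares of all tested genes. Ndufb3, a subunit of complex I, was 197 in that library and 547 to 1378 in the other Tert+/+ mice, against 1132 to 2055 in G3 Tert-/- kidneys.

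Interferon response genes had 25 of 31 tested members below 0, where 7289 of all 14630 tested genes were, with a median of -0.15. With an unadjusted p under 0.05 there were 2, against 5.39% of all tested genes in that direction, and 0 without Tert+/+ replicate 1. They were Ifih1, a sensor of double-stranded RNA (-0.30, SE 0.12), and Mx2, an antiviral GTPase (-0.68, SE 0.31). At 47 weeks the median was 0.20, with 27 of 31 above 0, against 52.1% of all tested genes. Whether the ages differ was tested only gene by gene, and no member's interaction passed.

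In proximal tubule 1 of 24 was higher with an unadjusted p under 0.05, Slc7a9, a cystine transporter (0.41, SE 0.15). In that list 1 was lower, the fatty acid transporter Slc27a2 (-0.29, SE 0.13), where 5.27% and 5.39% of all tested genes were higher and lower. Scnn1b, a subunit of the epithelial sodium channel of the collecting duct, was 86.6, 115, 120, 106 and 119 in the Tert+/+ mice against 127, 168, 139, 149 and 158 in the G3 Tert-/- mice, with no overlap. Klhl3, an adaptor for degradation of the kinases that control salt transport in the distal convoluted tubule, was 627, 567, 558, 578 and 602 in the Tert+/+ mice against 510, 538, 526, 455 and 504 in the G3 Tert-/- mice, also with no overlap and lower in G3 Tert-/- kidneys. Klhl3 lies within 20 Mb of Tert on chromosome 13. Leaving out Tert+/+ replicate 1, the unadjusted p of Scnn1b, Klhl3 and Slc27a2 was no longer under 0.05. In the thick ascending limb 0 of 11 had an unadjusted p under 0.05. The injury markers Havcr1 and Lcn2 were too low to test, at 0 to 9.97 and 0.964 to 10.2 in the 10 young kidneys, and 0 of 13 tested injury genes reached an unadjusted p under 0.05.

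Of the cell types that could come along with a kidney, adipocytes varied most. 10 of 11 adipocyte genes were higher, where 50.2% of all tested genes were, with a median of 1.20 and 0 with an unadjusted p under 0.05. That median was 0.31 without Tert+/+ replicate 3, 0.40 without G3 Tert-/- replicate 3, 1.88 without Tert+/+ replicate 5 and 1.997 without G3 Tert-/- replicate 1. The adipocyte score ran from -3.33 to 2.75 in Tert+/+ and from -2.10 to 3.95 in G3 Tert-/- kidneys, so mice of both groups were high and low. Urothelium scores were highest in G3 Tert-/- replicates 3 and 4 (1.76 and 1.74, against -2.10 to 0.40 in the others). Macrophage, endothelial and hepatocyte lists had medians of 0.09, -0.04 and 0.04.

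**Figure D5:**
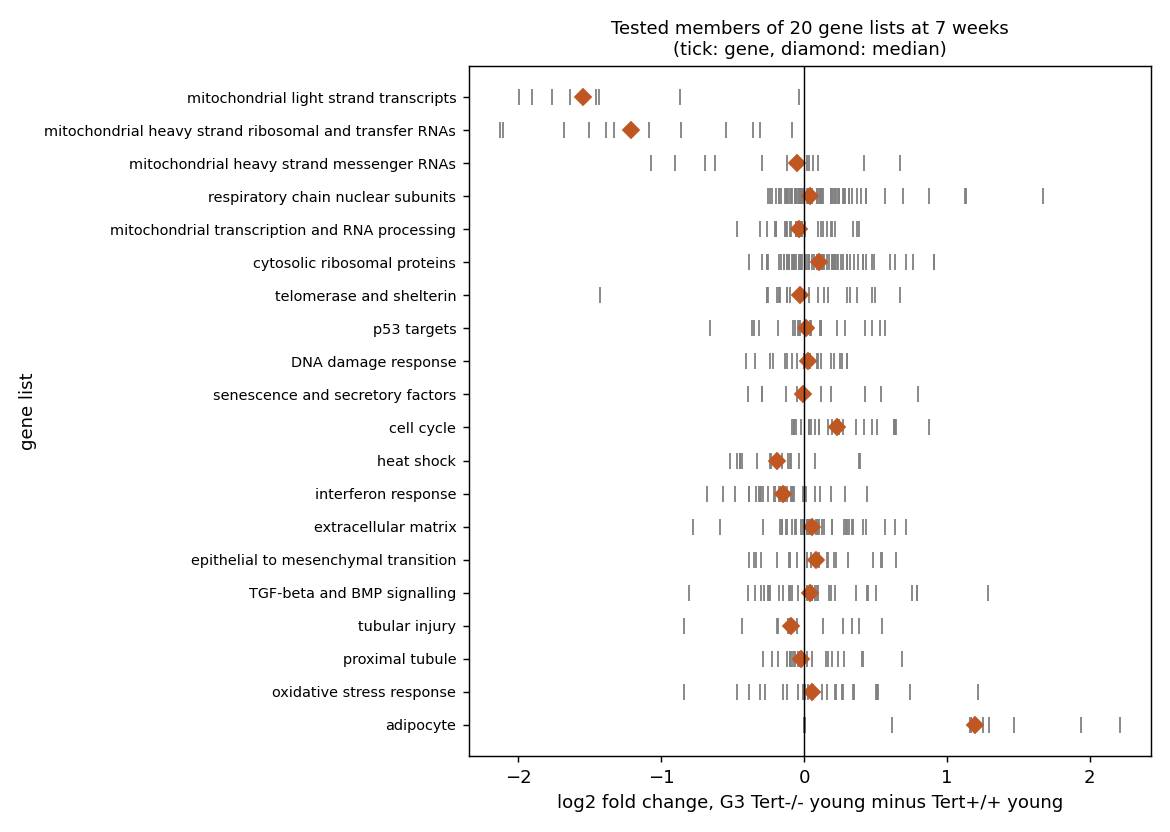
Log2 fold change at 7 weeks (G3 Tert-/- minus Tert+/+, horizontal axis) of the tested members of 20 gene lists, with a tick for each gene and a diamond at the median of the list. The lists of mitochondrial light strand transcripts and of heavy strand ribosomal and transfer RNAs lie below 0, at medians of -1.55 and -1.21, adipocyte genes lie at 1.20, and the medians of the other lists lie between -0.19 and 0.23.

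The mice also differed in how widely they spread. The median over genes of the SD of log2 values was 0.32 in Tert+/+ young, 0.24 without replicate 1, and 0.27 in G3 Tert-/- young kidneys, where the old groups had 0.26 and 0.25. In data simulated from these libraries, with changes set in genes of mean 20 or more, the 7-week test found 23.9% of 1.5-fold changes, 77.6% of 2-fold changes and 100% of 4-fold changes. Each simulated gene was drawn independently, and no simulated library stood apart as Tert+/+ young replicate 1 did. These shares therefore do not say which changes could have been missed in the real libraries.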

How the data were processed

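Libraries were made from 300 ng of whole kidney RNA (mean quality number 6.6, 5.0 to 7.5, per the labels' protocols) with oligo-dT primed 3′ chemistry. The deposited values are a signal: read counts per gene that the authors divided by 1 size factor per library, per the file headers and the values. Per the submitters' processing notes, the tools were HTSeq 0.6.1, TopHat2 2.0.10, FastQC 0.11.7, DESeq2, SAMtools 0.1.19 and Bowtie 1.0.0, with build GRCm38. No source used here states the strand setting of the counting. All columns belonged to 1 of the 20 samples.

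From the deposited values, log2(normalized count + 1) was tested with limma 3.58.1 (R 4.3.3) in 1 model of 4 group means over 20 libraries, with intensity-dependent variance and Benjamini-Hochberg adjustment over 14630 genes (threshold 0.05). The values were whole multiples of a step per library (100% within 1e-06), so whole reads were recovered and tested with edgeR 4.0.16 and DESeq2 1.42.0 as alternatives. Log2 fold changes are on the log2(value + 1) scale, which understates low genes. Tert was compared by an exact permutation test. Gene positions and classes come from GENCODE M21, in which 99.3% of the 19940 names matched 1 gene. The limma step was tested on simulated data, where 6 of 140 calls were false.

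Named genes were the 10 higher and 10 lower genes of smallest p without overlap and with a group mean of at least 20, those called by edgeR or DESeq2 or in the average of both ages, up to 2 per direction of each gene list, a fixed panel, the mitochondrially encoded genes and the genes near Tert, leaving out names that are identifiers. Of the genes so named, 1 is not reported here. The comparison, the genes and the lists were chosen with earlier results of these data known. Replicate numbers follow the order of deposit and pair no mice. Alternatives changed the filter, pseudocount, scaling, variance model, test and libraries. edgeR and DESeq2 without Tert+/+ young replicate 1, leave-one-out counts of genes without overlap and the alternatives for the transfer RNA median were chosen after seeing the data.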

Additional observations from a re-analysis of the deposited data

Results flagged for a closer look

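Among 128 genes in the 2 young groups (256 groups of 5 mice), 31 single values lay far from the other 4 of their group. Chance gives such a value in about 1 in 20 independent groups. Many of these genes were named by their values here, and all share the same libraries, so that rate is no measure for them. Tert+/+ young replicate 1 held 23 of the 31 values. Its high normalized counts among mitochondrial transcripts were mt-Te 662, mt-Tc 394, mt-Tl1 307, mt-Tr 649, mt-Ta 1329.5, mt-Tl2 74.8, mt-Tq 776, mt-Ts2 229, mt-Tt 173, mt-Tv 299, mt-Tw 120.1 and mt-Co3 181805. Among nuclear genes its values were Arpp21 81.7, Rif1 987, Cdkn1b 127, Rpl6 5336, Tgfb1 115, Atp6ap2 517, Ehhadh 542, Gclm 4912, Zfp874b 91.5, Rps12 1465 and Tmem140 135. Of these, Cdkn1b, Atp6ap2, Rps12 and Tmem140 were low in that library and the others high. G3 Tert-/- young replicate 3 stood apart in Rpl6 (1821), Tap2 (53.7), Slc25a20 (518) and Col3a1 (929). G3 Tert-/- young replicate 5 did so in Arpp21 (16.1) and Mx2 (6.43), replicate 1 in Cyp2a5 (587) and replicate 4 in mt-Tv (64.8). Slco1a1 differed between the ages by the interaction of genotype and age, with a log2 value of -2.09.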

How the results depend on the processing

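No paired analysis was possible because the replicate numbers follow the order of deposit and pair no mice. At 7 weeks limma called 0 genes, DESeq2 13, array weights 1, and leaving out 1 library at a time gave 0 to 2. At 47 weeks DESeq2 called 50 genes (73 without Tert+/+ young replicate 1), array weights 95, and leaving out 1 library gave 2 to 19. In the average of both ages the count was 2 with a filter of 50 or more, 56 with DESeq2 (57 without that library), 20 with array weights, and 0 to 7 with 1 library left out. For the interaction it was 8 with DESeq2 (6 without that library), 2 with array weights, 0 with edgeR without that library, 0 with robust variance, 0 without both libraries that stood apart, and 0 to 2 with 1 library left out. Genes with an unadjusted p under 0.05 at 7 weeks were 953 (DESeq2) and 941 (edgeR) without that library, and 941 to 2031 with 1 library left out. Genes without overlap were then 277 to 644, the Tert exact permutation p was 0.00794 to 0.0476 and the transfer RNA median -1.63 to -1.09. 6 named genes changed sign, 5 of them with log2 fold changes of -0.08 to 0.10 and mt-Tt at -0.54. Without Tert+/+ young replicate 1, Mdm2 was -0.052 in DESeq2 and -0.049 in edgeR, mt-Ti 0.22 and 0.20, and mt-Tt 0.026 and 0.030. With array weights Mdm2 was -0.021, Fn1 -0.052 and mt-Ti 0.0044. Without both libraries that stood apart, Mdm2 was -0.057, mt-Ti 0.26 and mt-Tt 0.063. With 1 library left out at a time the ranges were -0.057 to 0.11 (Mdm2), -0.0013 to 0.26 (Fn1), -0.21 to 0.15 (mt-Nd6), -0.63 to 0.47 (mt-Ti), -0.91 to 0.063 (mt-Tt) and -0.15 to 0.12 (Slco1a1). The cause was not tested. Over 51 list medians, 12 of 1222 alternatives moved by more than 1 SD of the list's Tert+/+ young scores. 31 of the lists, with medians of up to 0.26 in size, changed sign in 139 alternatives. The filter of 50 or more left no T cell or neutrophil gene, so it gave no value there. Over 128 genes, 30 of 3046 alternatives reversed.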
